A study of Drosophila melanogaster with 5 samples.

Results

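The mitochondrial ribosomal protein genes of Drosophila melanogaster carry the symbols mRpS for the small and mRpL for the large subunit of the mitochondrial ribosome. All genes of the table whose symbol starts with mRpS or mRpL followed by a digit were taken, which gave 73 of 14094 genes, 26 of the small and 47 of the large subunit. RNA was sequenced from whole ovaries of adult flies dissected 1 to 3 days after eclosion, in 2 libraries of a knockout labelled BEAF 32-AB KO (KO 1 and KO 2) and 3 libraries of a control with the genotype nosGAL4;MKRS/TM6 (controls 1, 2 and 3). The insulator protein BEAF-32 is known to bind close to promoters, often between divergently transcribed genes, and the comparison asks how ovarian transcripts differ when it is altered. In the control, nosGAL4 is a germline driver and MKRS and TM6 are balancers of chromosome 3. Neither is named for the knockout, so a difference in the stocks' background and the difference in BEAF-32 cannot be told apart. Nothing in the labels ties the libraries to separate flies, and p-values therefore measure only the spread among these libraries, which may be technical in part.

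The mitochondrial ribosome translates the few messages of the mitochondrial genome, which encode core subunits of the respiratory chain and of ATP synthase. Its RNAs come from the mitochondrial genome, whereas its proteins are encoded in the nucleus, made in the cytosol and imported. Some of these proteins have counterparts in bacterial ribosomes, and others are found only in mitochondria. In Drosophila, maternal mitochondria are multiplied and selected during oogenesis, so the ovary is a tissue with a large demand for them.

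Depth fell into classes that follow the genotype in part, since the shallow libraries are all controls. The estimated counts summed to 38820176 in KO 1 and 47805964 in KO 2, against 41105107 in control 1, 8448850 in control 2 and 10388643 in control 3. The knockout was therefore compared with all controls, with control 1 and with controls 2 and 3. The test was edgeR's quasi-likelihood test, p-values were adjusted over 9241 tested genes by the Benjamini-Hochberg method, and a gene was called at an adjusted p under 0.05. Levels are in CPM, the count scaled to the library total. Log2 fold changes are knockout minus control and carry a standard error (SE). BEAF-32 transcript was at 50.2 and 52.8 CPM in the knockout and at 84.9, 136 and 144 CPM in the controls. The log2 fold change was -1.19 (SE 0.26, adjusted p = 0.0157), and which part of the gene is altered is not in the labels. Its adjusted p was 0.107 without KO 1 and 0.126 without KO 2. Markers of other ovarian and non-ovarian cells moved with the genotype. Summed germline markers were at 2505 and 2883 CPM in the knockout, against 4276 to 5226 CPM in the controls. Of these 8 markers, 1 was called higher and 5 lower over all controls, where 22.7% of all tested genes were called higher and 18.7% lower. A second germline list, of 27 nuage and piRNA genes, was mixed. There 8 were called higher and 6 lower over all controls, with a median log2 fold change of 0.20. Summed follicle cell markers were at 1423 and 1300 CPM in the knockout, against 215 to 322 CPM in the controls, with 7 of 7 called higher. Summed muscle markers were at 4883 and 4848 CPM in the knockout, against 429 to 800 CPM in the controls, with 9 of 10 called higher. Fat body, hemocyte and neuron markers summed to at most 55.7 CPM in any library, and NimC1 and eater, markers of hemocytes, were at 0 in controls 2 and 3. In such bulk samples fewer cells of a type and less RNA per cell cannot be told apart, and the part of cell composition in the results was not tested.

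As a group, mitochondrial ribosomal protein transcripts in the knockout lay between the control libraries. Their summed level was 2522 and 2881 CPM in KO 1 and KO 2, against 2272 CPM in control 1, 3581 CPM in control 2 and 3533 CPM in control 3. The knockout was therefore above control 1 and below controls 2 and 3, and the groups overlapped. Single genes followed this order in part. In 23 of the 73 members both knockout libraries lay above control 1 and below the lower of controls 2 and 3, which was so for 4.57% of all tested genes. Control 1 was below both other controls in 64 of the 73 members (87.7%), against 40.2% of all tested genes, and was the lowest of the 5 libraries in 47 members. KO 2 was above KO 1 in 66 members. Genes with rRNA in the symbol took 17.2% of the counts in KO 1 and 11.7% in KO 2, which also enters the CPM of other genes. The share of all tested genes was not computed for this order or for control 1 as the lowest library. All 73 members passed the filter on low counts, the lowest count of any member in any library was 123, and levels ran from 5.64 to 492 CPM.

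**Figure D1:**
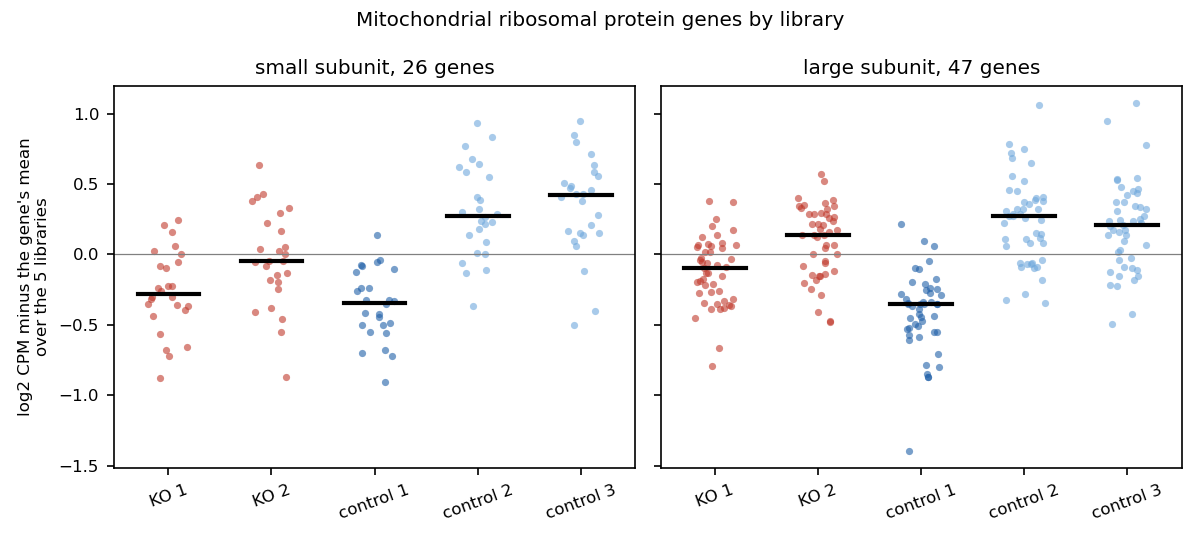
Log2 CPM of each mitochondrial ribosomal protein gene minus its own mean over the 5 libraries, for the 26 small and the 47 large subunit genes, with a bar at the median of each library. Control 1 lies lowest, controls 2 and 3 lie highest, and KO 1 and KO 2 lie between them, as do the summed levels, 2522 and 2881 CPM in the knockout, against 2272, 3581 and 3533 CPM in the controls.

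Against all 3 controls, 5 members rose and 3 fell, and 65 were not called. Of all tested genes, 22.7% were called higher and 18.7% lower in this comparison, or 41.5% in either direction, so a smaller share of the members was called than of the tested genes at large. The median log2 fold change of the members was -0.01, with quartiles of -0.37 and 0.23, against a median of 0.11 over all tested genes. Both knockout libraries were above every control in 10 members and below every control in 8, where 37.6% of all tested genes were above and 30.5% below. None of the 8 calls held with 1 knockout library. Without KO 1, no member was called, with 3 higher and 3 lower at an unadjusted p under 0.05, and without KO 2 no member was called, with 2 higher and 2 lower at that level. The adjusted p of the 8 members lay between 0.0892 and 0.264 without KO 1 and between 0.0956 and 0.293 without KO 2. No other tool was run on these reduced sets. The number of tested genes called also fell there, to 475 higher and 403 lower without KO 1 and 591 higher and 440 lower without KO 2. Without control 2, no member rose and 2 fell, with 4 higher and 4 lower at an unadjusted p under 0.05, and without control 3, 2 rose. Without control 1, 7 rose and 32 fell.

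Taken one control class at a time, the members gave opposite pictures. Against control 1, 27 members rose and 3 fell, with a median log2 fold change of 0.34, while 28.9% of all tested genes were called higher and 25.8% lower, 54.7% in all. In CPM, both knockout libraries were above control 1 in 53 members and below it in 9, where 49.7% of all tested genes were above and 41.5% below. Against controls 2 and 3, 7 members rose and 32 fell, with a median log2 fold change of -0.22, while 37.1% of all tested genes were called higher and 29.6% lower, 66.8% in all. In CPM, both knockout libraries were above controls 2 and 3 in 10 members and below them in 40, where 45.1% of all tested genes were above and 38.5% below. The median of all tested genes was 0.13 in the first of these comparisons and 0.15 in the second. Over the 700 tested protein-coding genes shorter than the members' median length it was 0.55 in the first and -0.03 in the second. Both comparisons use the same knockout libraries and come from 1 fit, in which the single library of control 1 is assumed to vary like the others. The comparison with controls 2 and 3 also sets deep libraries against shallow ones, so genotype and depth class cannot be told apart in it. The controls themselves differed: in control 1 minus controls 2 and 3, 36 members were lower, with a median of -0.59, where 11% of all tested genes were lower. Other mitochondrial genes were also lower there, 8 of 13 protein import genes and 26 of 65 nuclear-encoded oxidative phosphorylation subunits, and the median of the 700 tested protein-coding genes shorter than the members' median length was -0.53. No member was higher, also at an unadjusted p under 0.05 and by DESeq2 and limma-voom, where 17% of all tested genes were higher and 28% were called in all. The median difference between the control classes was thus larger in size than that of the knockout from either class. Against control 1 the count of higher members was 12 without KO 1 and 9 without KO 2, and against controls 2 and 3 it was 4 without KO 2.

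**Figure D2:**
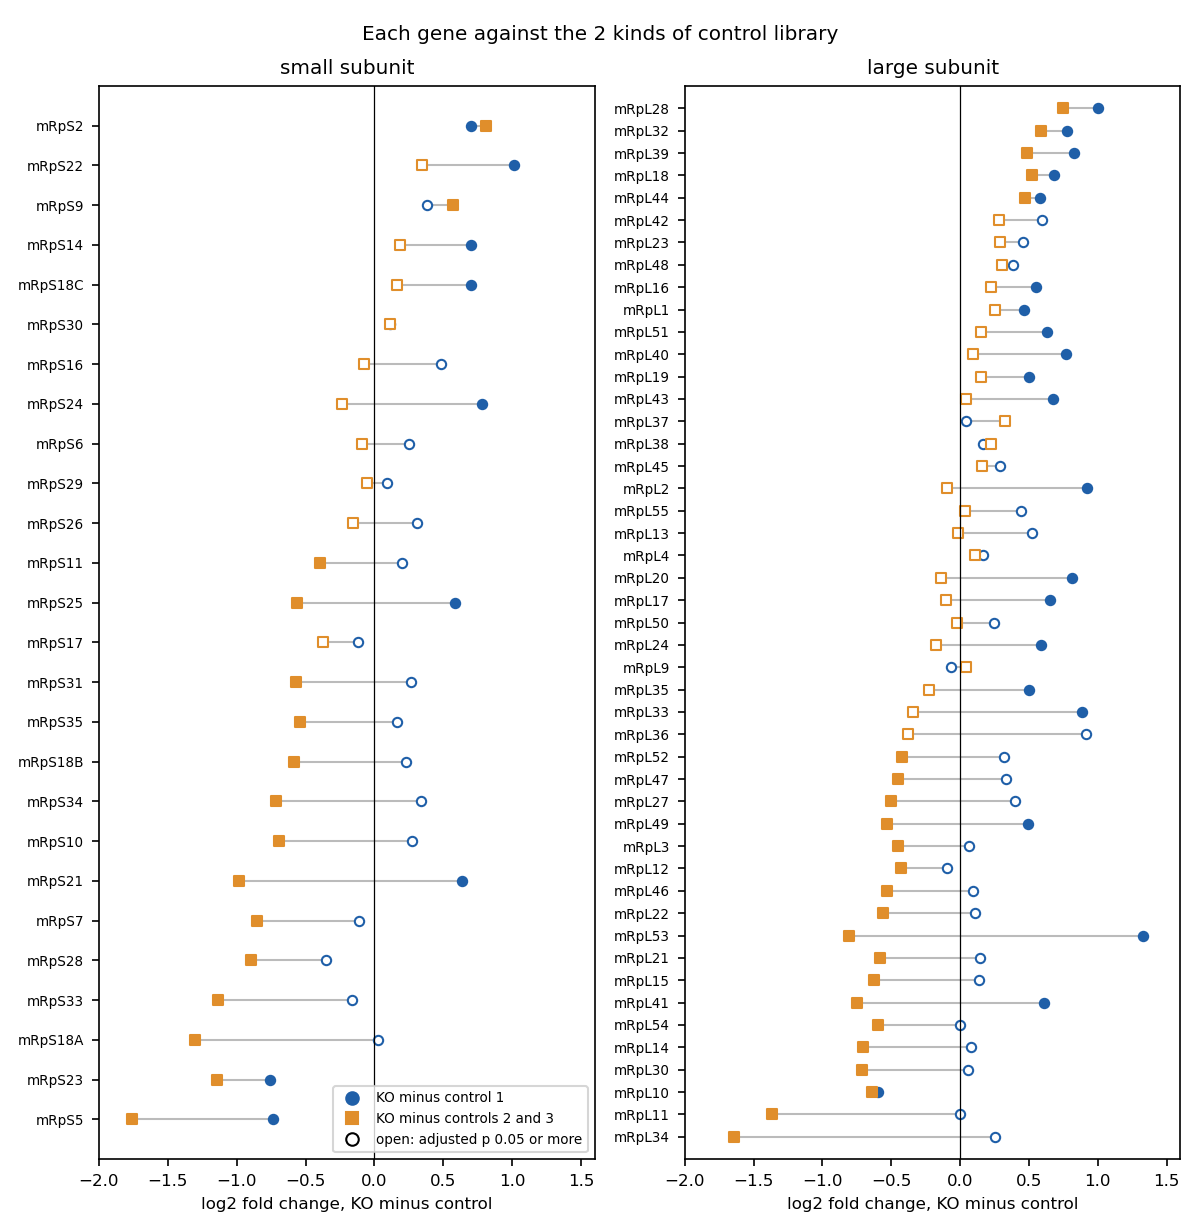
Fitted log2 fold change of each of the 73 members in the knockout against control 1 (blue circles) and against controls 2 and 3 (orange squares), filled where the adjusted p was under 0.05, with genes ordered by their fold change over all controls. Most circles lie right of 0 and most squares left of it. mRpL28 is right of 0 and mRpS5 left of 0 in both comparisons, mRpL53 is at 1.33 and -0.81, and for mRpS30 the square, at 0.12, covers the circle, at 0.11.

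In all, 9 members were called in the same direction against both control classes. The shares of all tested genes with this or the other call patterns of this paragraph were not computed. The 6 that rose in both were mRpL28, mRpS2, mRpL32, mRpL39, mRpL44 and mRpL18. Of these 6, 5 encode large subunit proteins, as do 47 of the 73 members. The 3 that fell in both were mRpS5, mRpS23 and mRpL10. A further 16 members rose against control 1 alone, 24 fell against controls 2 and 3 alone, mRpS9 rose against controls 2 and 3 alone, and 18 were called in neither. The calls of mRpL28, mRpS5 and mRpS23 against both classes held under every other setting tried, including each library left out, apart from control 1, without which the first of these comparisons cannot be made.

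mRpL28, the counterpart of a bacterial large subunit protein, had the largest rise over all controls among the members. It is encoded at chr2L:4973976-4975316 on the plus strand (dm6). Its level was 83.0 and 94.7 CPM in KO 1 and KO 2, against 44.9, 52.4 and 57.5 CPM in controls 1, 2 and 3. Both knockout libraries were above all controls, and the log2 fold change was 0.83 (SE 0.16, adjusted p = 0.0118). It was 1.00 against control 1 (adjusted p = 0.000642) and 0.74 against controls 2 and 3 (adjusted p = 0.000647).

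mRpS2 was the 1 small subunit gene that rose, and it encodes the counterpart of bacterial S2. It lies at chr2L:4849439-4850419 on the minus strand. The level of mRpS2 was 24.9 and 32.6 CPM in the knockout libraries, against 17.8, 19.2 and 14.8 CPM in the controls. The groups did not overlap, and the log2 fold change was 0.77 (SE 0.20, adjusted p = 0.0253), with 0.70 against control 1 (adjusted p = 0.0265) and 0.81 against controls 2 and 3 (adjusted p = 0.00463).

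mRpL32, whose protein is matured by a mitochondrial protease in yeast and mouse, lies at chr3R:31252872-31253686 on the plus strand. Its level was 35.8 and 35.6 CPM in the knockout, against 21.1, 22.0 and 27.1 CPM in the controls. The knockout libraries were nearly equal and above every control, at 0.65 on the log2 scale (SE 0.18, adjusted p = 0.0334). mRpL39, a protein found only in mitochondrial ribosomes, is encoded at chr3L:14997981-14999666 on the minus strand. The level of mRpL39 was 64.0 and 83.4 CPM in the knockout, against 41.9, 54.4 and 54.5 CPM in the controls. Control 1 was the lowest library and KO 2 the highest, without overlap, and the log2 fold change was 0.59 (SE 0.18, adjusted p = 0.0460). mRpL44, a mitochondria-specific protein with an RNase III-like fold in human, is encoded at chr3R:5469463-5470636 on the minus strand. The level of mRpL44 was 49.0 and 56.9 CPM in the knockout, against 35.8, 41.8 and 37.4 CPM in the controls. The groups did not overlap, and the log2 fold change was 0.51 (SE 0.15, adjusted p = 0.0379). Of 15 other settings, the call over all controls was kept in 8 for mRpL32, in 5 for mRpL39 and in 5 for mRpL44. Upper quartile scaling gave adjusted p-values of 0.0569 for mRpL32, 0.0819 for mRpL39 and 0.0717 for mRpL44.

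mRpL18 and mRpS9 also lay above all controls without passing the test over all controls. mRpL18 was at 39.7 and 44.2 CPM in the knockout, against 26.4, 35.98 and 24.9 CPM in the controls, with a log2 fold change of 0.57 (adjusted p = 0.0590). mRpS9, the counterpart of a bacterial protein of the small subunit head, was at 74.1 and 87.8 CPM in the knockout, against 62.7, 51.4 and 61.2 CPM in the controls. Its log2 fold change was 0.51 (adjusted p = 0.0576).

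mRpS5 was the most abundant member in every library and had the largest fall over all controls. It encodes the counterpart of bacterial S5, which lies where the message enters the small subunit, at chr3L:24537236-24543534 on the plus strand. Its level was 139 CPM in both KO 1 and KO 2, against 235 CPM in control 1, 487 CPM in control 2 and 492 CPM in control 3. The knockout libraries were equal to 3 digits and below all controls, which themselves spread widely. The log2 fold change was -1.49 (SE 0.35, adjusted p = 0.0210), with -0.73 against control 1 (adjusted p = 0.00230) and -1.76 against controls 2 and 3 (adjusted p = 3.11e-06). Its estimated counts had a fractional part in every library. It shares no exon with another annotated gene, and such counts arise when reads are divided between targets, so its level is uncertain.

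mRpS23, a mitochondria-specific small subunit protein, is encoded at chr2L:13834250-13835072 on the minus strand. Its level was 16.1 and 18.2 CPM in the knockout, against 29.3, 41.0 and 37.7 CPM in the controls. All knockout values were below all control values, and the log2 fold change was -1.02 (SE 0.20, adjusted p = 0.0105), with -0.76 against control 1 (adjusted p = 0.00435) and -1.14 against controls 2 and 3 (adjusted p = 0.000117). mRpL10 forms the base of the stalk that binds translation factors, and it is encoded at chr2L:203779-204782 on the plus strand. The level of mRpL10 was 28.9 and 28.3 CPM in the knockout, against 43.7, 41.8 and 50.9 CPM in the controls. The groups did not overlap, and the log2 fold change was -0.63 (SE 0.17, adjusted p = 0.0320). mRpL12, which forms the rest of the stalk, was at 45.3 and 49.3 CPM in the knockout, against 51.1, 70.4 and 62.0 CPM in the controls. It did not pass the test over all controls, with a log2 fold change of -0.32 (adjusted p = 0.188).

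**Figure D3:**
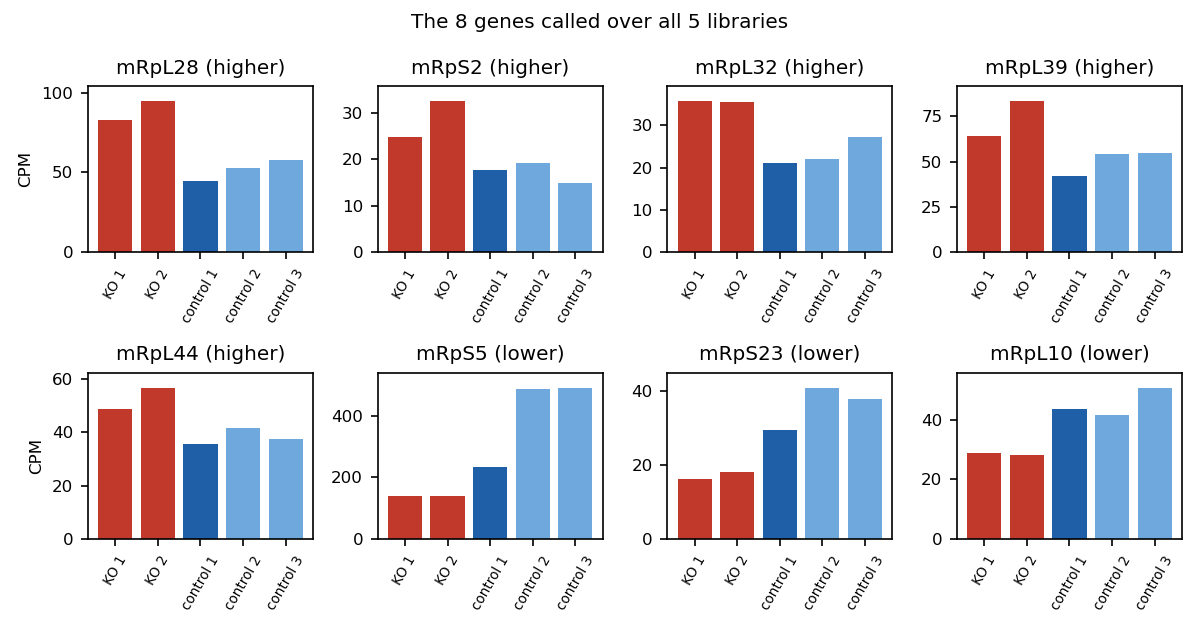
CPM of the 8 members called over all controls, with 1 bar per library and an axis from 0 in each panel. In the first 5 panels both knockout bars are above all control bars, and in those of mRpS5, mRpS23 and mRpL10 they are below them, with control 1 of mRpS5 at 235 CPM between the knockout and the other controls.

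5 members were called higher against control 1 and lower against controls 2 and 3, a pattern found for 0.574% of all tested genes. The reverse pattern, found for 1.34% of all tested genes, was in no member. mRpL53, a mitochondria-specific large subunit protein, was at 44.2 and 53.0 CPM in the knockout, against 19.5 CPM in control 1, 88.4 CPM in control 2 and 88.0 CPM in control 3. The knockout was higher than control 1 by 1.33 (adjusted p = 0.000157) and was at -0.81 against controls 2 and 3 (adjusted p = 0.000390). All annotated exon bases of mRpL53 lie within CG33155 on the same strand, so the counts of this pair could be divided between them and its level is uncertain. mRpS21, the counterpart of bacterial S21, was at 16.3 and 19.9 CPM in the knockout, against 11.7 CPM in control 1 and 34.3 and 39.6 CPM in controls 2 and 3. mRpL41 was at 15.6 and 16.9 CPM in the knockout, against 10.8 CPM in control 1 and 30.8 and 26.1 CPM in controls 2 and 3. mRpS25 was at 20.3 and 25.8 CPM in the knockout, against 15.5 CPM in control 1 and 40.2 and 30.4 CPM in controls 2 and 3. The same order was seen in mRpL49, with 29.0 and 39.1 CPM in the knockout, against 24.4 CPM in control 1 and 50.9 and 51.0 CPM in controls 2 and 3. In all 5, the knockout lay between the control classes without overlap. The calls of mRpL53 held under every setting tried, but those against control 1 were kept in 10 of 13 settings for mRpS21, in 6 for mRpL41, in 6 for mRpS25 and in 4 for mRpL49.

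The members with the largest difference from 1 control class alone were picked after their values were seen. mRpL34 was at 6.31 and 7.87 CPM in the knockout, against 5.98 CPM in control 1 and 22.8 and 23.01 CPM in controls 2 and 3. It was at 0.26 against control 1 on the log2 scale (adjusted p = 0.438) and at -1.64 against controls 2 and 3 (adjusted p = 0.000192). mRpL11, whose bacterial counterpart lies at the stalk base, was at 15.6 and 17.8 CPM in the knockout, against 16.8 CPM in control 1 and 41.5 and 47.6 CPM in controls 2 and 3. It fell by 1.37 against controls 2 and 3 (adjusted p = 6.4e-05). In both genes control 1 was close to the knockout and apart from the other controls. mRpS22, a mitochondria-specific small subunit protein, showed another order, with 61.5 and 71.8 CPM in the knockout, against 33.3 CPM in control 1 and 49.5 and 59.2 CPM in controls 2 and 3. Both knockout libraries were above all controls, and it was higher by 1.01 against control 1 (adjusted p = 0.00131) and not called over all controls (0.54, adjusted p = 0.137).

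Of the uncalled members, the most abundant were mRpS30, mRpS7, mRpS9 and mRpL1. mRpS30 was at 114 and 113 CPM in the knockout, against 106, 136 and 82.8 CPM in the controls, at 0.11 on the log2 scale (SE 0.23, adjusted p = 0.714). Here the groups overlapped and control 3 was the lowest library. mRpS7, whose bacterial counterpart nucleates the head of the small subunit, was at 71.0 and 71.4 CPM in the knockout, against 77.8, 137 and 130 CPM in the controls. Its libraries did not overlap, but over all controls it was not called, with -0.64 (SE 0.27, adjusted p = 0.103), while against controls 2 and 3 it fell by 0.85 (adjusted p = 0.000156). mRpL1, of the L1 stalk, was at 64.5 and 73.5 CPM in the knockout, against 50.7, 57.5 and 62.8 CPM in the controls, with a log2 fold change of 0.32 (adjusted p = 0.156).

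The mRpS18 paralogs, which descend from 1 bacterial small subunit protein, differed in their calls. mRpS18A was at 23.8 and 28.7 CPM in the knockout, against 26.03 CPM in control 1 and 68.1 and 66.2 CPM in controls 2 and 3, and it fell by 1.30 against controls 2 and 3 (adjusted p = 3.4e-05). mRpS18B was at 24.9 and 25.5 CPM in the knockout, against 21.7, 35.5 and 42.8 CPM in the controls, and it fell by 0.58 against controls 2 and 3 (adjusted p = 0.00873). mRpS18C was at 17.4 and 21.5 CPM in the knockout, against 12.1, 18.2 and 17.8 CPM in the controls, and it was higher by 0.70 against control 1 (adjusted p = 0.0249). None of the 3 was called over all controls, with adjusted p-values of 0.112 for mRpS18A, 0.370 for mRpS18B and 0.319 for mRpS18C. A test of the difference between paralogs was not made. The small subunit genes tko and bonsai, counterparts of bacterial S12 and S15, have other symbols and are not among the 73. tko was at 26.6 and 35.9 CPM in the knockout, against 22.4, 47.0 and 38.6 CPM in the controls (log2 fold change -0.16, adjusted p = 0.712). bonsai was at 59.8 and 71.8 CPM in the knockout, against 57.7, 46.9 and 39.9 CPM in the controls (log2 fold change 0.48, adjusted p = 0.108).

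Transcripts of the small subunit were fewer relative to those of the large subunit in the knockout. The summed level of the 26 small subunit genes was 976 and 1093 CPM in the knockout, against 1002, 1654 and 1647 CPM in the controls. That of the 47 large subunit genes was 1546 and 1788 CPM in the knockout, against 1270, 1927 and 1886 CPM in the controls. Their ratio, small over large, was 0.631 and 0.611 in the knockout, against 0.789, 0.858 and 0.874 in the controls, without overlap, or 0.621 ± 0.0141 (SD, n = 2) in the knockout and 0.840 ± 0.0452 (SD, n = 3) in the control. With 2 against 3 libraries an exact permutation test cannot give a p under 0.1, and none is given. mRpS5 held 14.3% and 12.8% of the small subunit counts in the knockout, against 23.4%, 29.5% and 29.9% in the controls. Without mRpS5, left out after its values were seen, the ratio was 0.541 and 0.533 in the knockout, against 0.604, 0.605 and 0.613 in the controls. The gap between the genotypes was smaller then, and the groups still did not overlap. In human mitochondrial ribosomes the counterparts of mRpS18A and mRpS30 sit in the large subunit despite their names. With these counted as large subunit genes, the ratio was 0.498 and 0.493 in the knockout, against 0.620, 0.680 and 0.736 in the controls.

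**Figure D4:**
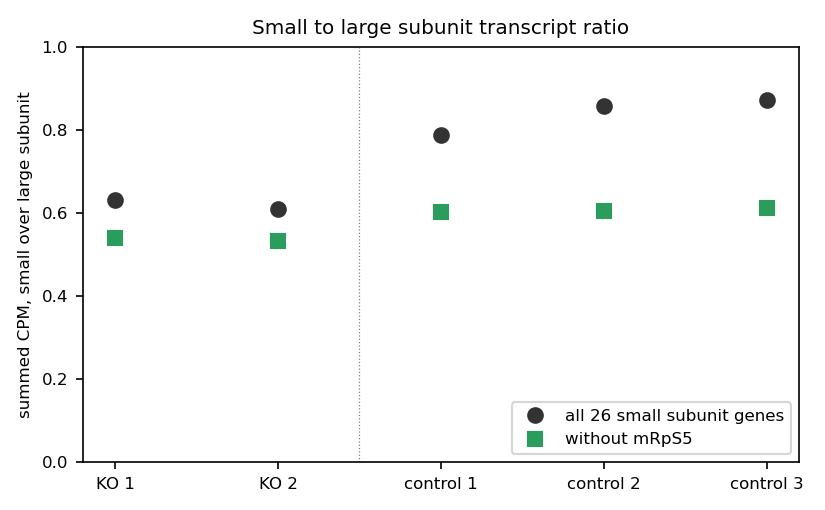
Summed CPM of small subunit genes divided by that of large subunit genes in each library, for all 26 small subunit genes (circles) and without mRpS5 (squares). Both knockout libraries lie below all controls in both versions, at 0.631 and 0.611 against 0.789 to 0.874 with all genes.

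The same lean was seen in the single genes of each subunit. The median log2 fold change over all controls was -0.28 for the small and 0.06 for the large subunit. It was 0.26 for the small and 0.46 for the large subunit against control 1, and -0.47 for the small and -0.11 for the large subunit against controls 2 and 3. In every setting tried the small subunit median was below the large subunit median, by 0.20 to 0.40 over all controls, 0.14 to 0.24 against control 1 and 0.19 to 0.42 against controls 2 and 3. The sign of the large subunit median over all controls turned with the scaling: it was -0.03 when scaled on germline genes and -0.02 on totals without rRNA genes. In control 1 minus controls 2 and 3 the medians were -0.63 for the small and -0.59 for the large subunit, and -0.69 for the small and -0.54 for the large subunit without control 2. The small subunit median was also the lower of the pair there in every setting tried. Over all controls, 1 small subunit gene rose and 2 fell, and 4 large subunit genes rose and 1 fell. Of all tested genes, 22.7% rose and 18.7% fell there, larger shares than in either subunit. Against control 1, 76.9% of the small and 91.5% of the large subunit genes were above 0, where 55.5% of all tested genes were. Against controls 2 and 3, 2 small subunit genes rose and 14 (53.8%) fell, and 5 large subunit genes rose and 18 (38.3%) fell. Of all tested genes, 37.1% rose and 29.6% fell in that comparison. No test of the difference between subunits was made, since their genes are not replicates.

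Members were also grouped by the number in their name, as a rough guide to descent. The 42 numbered up to 21 in the small or up to 36 in the large subunit were taken to have bacterial counterparts. The other 31 were taken as specific to mitochondria. Descent was not checked gene by gene, so either group may hold misplaced members. The median log2 fold change over all controls was -0.02 in the 42 and -0.00 in the 31. It was 0.39 in the 42 and 0.33 in the 31 against control 1, and -0.28 in the 42 and -0.16 in the 31 against controls 2 and 3. Per kilobase of annotated exon, mRpS5 was the most abundant member in both genotypes, at 82.8 CPM per kb in the knockout and 241 CPM per kb in the control, followed by mRpS7 at 77.7 CPM per kb in the knockout and 125 CPM per kb in the control. mRpL28 ranked 3 of 73 in the knockout, at 75.9 CPM per kb, and 33 in the control, at 44.1 CPM per kb. The control levels per kb are means over controls 1, 2 and 3, so they mix the control classes. In these controls, in order, mRpS5 was at 139, 290 and 293 CPM per kb. mRpS7 was at 84.8, 149 and 142 CPM per kb, and mRpL28 at 38.4, 44.8 and 49.1 CPM per kb. The median level was 36.9 CPM per kb in the knockout and 41.2 CPM per kb in the control for the small subunit, and 42.5 CPM per kb in the knockout and 41.5 CPM per kb in the control for the large subunit.

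Members are short genes, with a median exonic length of 783 bases, and length went with the difference between control classes. Across the 73 members, Spearman's rho of length with the log2 difference control 1 minus controls 2 and 3 was 0.39, so that shorter genes had the lower values in control 1. Across 9128 tested protein-coding genes it was 0.46. For the knockout, rho across the members was -0.13 against control 1, 0.28 against controls 2 and 3 and 0.23 against all controls. Across the tested protein-coding genes it was -0.08, 0.19 and 0.11 in the same order. These are correlations across genes that share the same libraries, and the part of length in the results was not tested.

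Members often share an upstream region with a divergent neighbour, the arrangement at which BEAF-32 is known to bind. A protein-coding gene on the opposite strand starts within 1000 bases upstream of 56 of the 73 members (76.7%), against 42.6% of the tested protein-coding genes. The share was 76.9% for the small and 76.6% for the large subunit. The distance between the starts ran from 20 to 793 bases, with a median of 287.5 bases, against 295 bases over all such tested genes. BEAF-32 binding was not measured here. All 5 members that rose over all controls were among these 56, and so was mRpS23, while mRpS5 and mRpL10, which fell, have no such neighbour. Of the 56, 8.93% rose and 1.79% fell, where 15.5% and 21.04% of all tested genes with such a neighbour did. The median log2 fold change over all controls was 0.01 in the 56 and -0.26 in the other 17 members. It was 0.36 and 0.34 against control 1, and -0.16 and -0.43 against controls 2 and 3. A link between neighbour and direction was not tested. Of the 54 neighbours that were tested, 7 rose and 13 fell over all controls, with a median log2 fold change of -0.18. Among 3884 tested genes with such a neighbour, 15.5% rose and 21.04% fell.

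In 2 of the pairs with a member that rose, the neighbour fell. The gene FBgn0010607 starts 55 bases from mRpL28 and was at 22.6 and 21.8 CPM in the knockout, against 36.6, 43.1 and 39.2 CPM in the controls (log2 fold change -0.79, adjusted p = 0.0126). Snr1, a subunit of the Brahma chromatin remodelling complex, starts 290 bases from mRpL44 and was at 32.6 and 39.7 CPM in the knockout, against 63.9, 82.3 and 79.8 CPM in the controls (log2 fold change -1.02, adjusted p = 0.00779). In each pair both genes were without overlap between the genotypes, and in opposite directions. Of all tested genes, 37.6% were above and 30.5% below every control in both knockout libraries. How often other neighbouring pairs differ in this way was not computed. The neighbours of the other members that rose were not called: Mon1 beside mRpS2 was at -0.46, qless beside mRpL32 at 0.33 and Prosbeta2 beside mRpL39 at 0.07. Taz, the tafazzin that remodels the mitochondrial lipid cardiolipin, starts 20 bases from mRpL18 and was at 17.2 and 18.8 CPM in the knockout, against 37.1, 41.3 and 42.8 CPM in the controls (log2 fold change -1.12, adjusted p = 0.00385). ATPsynD, a subunit of ATP synthase, starts 95 bases from mRpL55 and rose, with a log2 fold change of 0.74 (adjusted p = 0.0125), whereas mRpL55 was at 0.16 (adjusted p = 0.570). These neighbours were picked for their place beside members described above, and Taz and ATPsynD after their values were seen.

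The members' exons overlap those of other genes often enough to touch their counts. Of the 73, 43 share annotated exon bases with another gene, mostly on the opposite strand, and 3 do so on the same strand: mRpL53, mRpL13 and mRpS14. Libraries were made with a directional kit, but the strand setting used in counting is not given in the sources used here. Reads of a member and of its antisense partner can be told apart only if strand was used.

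Nuclear-encoded subunits of oxidative phosphorylation, the enzymes that mitochondrial translation completes, had median log2 fold changes of 0.33 over all controls, 0.59 against control 1 and 0.24 against controls 2 and 3, where the medians of all tested genes were 0.11, 0.13 and 0.15. Of 65 tested, 13 (20%) rose over all controls, below the 22.7% of all tested genes. Against control 1, 64 (98.5%) were above 0, where 55.5% of all tested genes were. Against controls 2 and 3, 26 (40%) rose and 4 (6.15%) fell, where 37.1% of all tested genes rose and 29.6% fell. ND-B17.2, a subunit of complex I, was at 52.1 and 58.0 CPM in the knockout, against 30.1, 29.9 and 34.5 CPM in the controls (log2 fold change 0.85, adjusted p = 0.00875). UQCR-C2 of complex III was at 141 and 174 CPM in the knockout, against 101, 97.3 and 104 CPM in the controls (log2 fold change 0.68, adjusted p = 0.0176). ATPsynC, the most abundant uncalled subunit, was at 2021 and 2075 CPM in the knockout, against 2039, 1780 and 1813 CPM in the controls. Set against these subunits, mitochondrial ribosomal proteins gave 22.3 and 23.2 counts per 100 counts of oxidative phosphorylation genes in the knockout, against 24.6, 35.5 and 34.0 in the controls. Per 100 counts of cytosolic ribosomal protein genes they gave 2.15 and 2.05 in the knockout, against 3.44, 4.48 and 4.27 in the controls. Both ratios were lowest in the knockout libraries. For the first, this order rests on the small subunit and mRpS5: for the large subunit alone it was 13.7 and 14.4 in the knockout, against 13.7, 19.1 and 18.1 in the controls, and without mRpS5 it was 21.1 and 22.1 in the knockout, against 22.04, 30.7 and 29.2 in the controls, both with KO 2 above control 1. The ratio to cytosolic ribosomal protein genes did not overlap in either case, with 1.32 and 1.27 in the knockout, against 1.92 to 2.41 in the controls, for the large subunit. Of 90 cytosolic ribosomal protein genes tested, 58 (64.4%) rose over all controls, where 22.7% of all tested genes rose. Against control 1 all 90 were above 0, where 55.5% of all tested genes were.

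Transcripts of the mitochondrial genome, the messages that these ribosomes translate, varied far more than the ribosomal proteins. The 13 protein-coding genes summed to 1181 and 2366 CPM in the knockout, against 3133 CPM in control 1, 27578 CPM in control 2 and 28944 CPM in control 3. In sum the knockout was below all controls, and control 1 was nearer to the knockout than to the other controls. Of 10 tested, 5 (50%) fell over all controls, where 18.7% of all tested genes fell, and all 10 fold changes were below 0. Against control 1 the single genes disagreed, with 3 above 0 and 7 below it. They ran from -5.43 to 10.3 on the log2 scale there. mt:ND4, a subunit of complex I, was at 1.83 and 2.18 CPM in the knockout, against 87.8, 925 and 869 CPM in the controls (log2 fold change -8.24, adjusted p = 0.00605). mt:CoI, the catalytic subunit of cytochrome c oxidase, was at 743 and 1102 CPM in the knockout, against 1188, 5618 and 6414 CPM in the controls, and did not pass the test (log2 fold change -2.22, adjusted p = 0.0518).

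**Figure D5:**
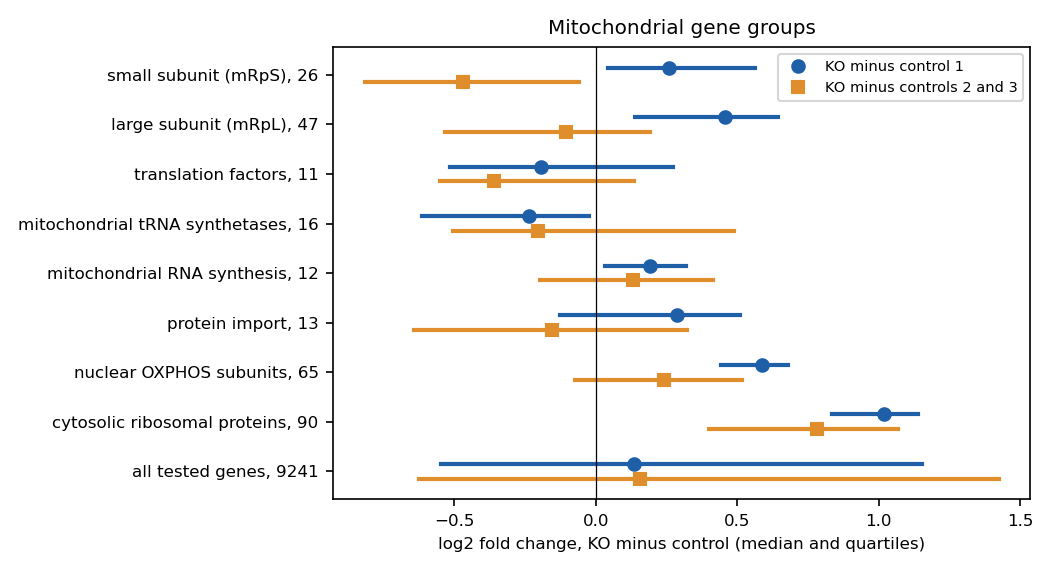
Median and quartiles of the log2 fold change in the knockout against control 1 (circles) and against controls 2 and 3 (squares) for both ribosomal subunits, other mitochondrial gene groups, cytosolic ribosomal proteins and all tested genes, with the number of tested genes beside each name. The small subunit median is 0.26 against control 1 and -0.47 against controls 2 and 3, and the medians of the oxidative phosphorylation subunits, 0.59 and 0.24, are both above 0.

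Other parts of mitochondrial gene expression were mixed. Over all controls 22.7% of all tested genes rose and 18.7% fell. The share that fell was 18.2% of translation factors, 25% of synthetases, 8.33% of RNA synthesis genes and 23.1% of import genes. The share that rose was 0%, 6.25%, 8.33% and 15.4% in the same order. Of 11 translation factors, 2 fell over all controls: mRF1, a release factor, at -1.21 (adjusted p = 0.0210), and mIF3, an initiation factor, at -0.81 (adjusted p = 0.0456). mEFTu1, the elongation factor that delivers tRNAs, was the most abundant uncalled factor, at 0.39 (adjusted p = 0.0860). Of 16 mitochondrial aminoacyl-tRNA synthetase genes, 1 rose and 4 fell, among them ValRS-m at -1.03 (adjusted p = 0.0141), SerRS-m at -0.86 (adjusted p = 0.0172) and MetRS-m at -0.70 (adjusted p = 0.0317). Of 12 genes of mitochondrial RNA synthesis and maturation, mtTFB1 rose, at 0.56 (adjusted p = 0.0320), and mldr fell, at -1.05 (adjusted p = 0.0235). Of 13 protein import genes, 2 rose and 3 fell, with ttm50 of the inner membrane translocase at 0.78 (adjusted p = 0.0230), its channel subunit Tim23 at -0.82 (adjusted p = 0.0308) and Roe1, an import co-chaperone, at -0.60 (adjusted p = 0.0255).

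Of 4 known activators of nuclear genes for mitochondria or ribosomes, 3 fell in the knockout, where 18.7% of all tested genes fell over all controls. srl, the Drosophila PGC-1 homologue, was at 276 and 298 CPM in the knockout, against 518, 542 and 473 CPM in the controls (log2 fold change -0.79, adjusted p = 0.0126). Ets97D, the homologue of the NRF-2 subunit GABP alpha, was at 24.4 and 29.3 CPM in the knockout, against 42.3, 54.1 and 57.9 CPM in the controls (log2 fold change -0.89, adjusted p = 0.0151). ewg, the homologue of NRF-1, was at 64.2 and 76.8 CPM in the knockout, against 107, 99.7 and 119 CPM in the controls (log2 fold change -0.59, adjusted p = 0.0350). All 3 fell against each control class as well, and in none did the genotypes overlap. Myc was at 354 and 474 CPM in the knockout, against 385, 388 and 335 CPM in the controls, with overlap and a log2 fold change of 0.20 (adjusted p = 0.399).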

How the data were processed

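Total RNA from ovaries was made into directional libraries, per the labels' protocols. The submitters' processing notes name FastQC 0.11.8, Trim Galore 0.6.6, STAR 2.7.5b, Salmon 1.2.1 and dm6; settings, gene annotation and strand setting are not given in the sources used here. 1 table of unscaled estimated counts for the 5 libraries was deposited by the authors, with 5.33% to 9.29% of values fractional per library. Counts were rounded and tested over the whole table with edgeR 4.0.16 (R 4.3.3: filterByExpr by genotype, TMM factors 0.941 to 1.03, robust quasi-likelihood fit, Benjamini-Hochberg adjustment over 9241 genes). 1 fit used knockout and control; another used knockout, control 1, and controls 2 and 3 as 3 groups. CPM used column totals, which include 21 genes with rRNA in the symbol (11.7% to 17.3% of counts). The fits were tried on simulated counts with planted changes and no difference between control classes. That trial cannot show how the calls hold where the control classes differ, as they do here. Replicate numbers did not pair the libraries. No libraries were duplicates (chi-square per degree of freedom at least 12.9).

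The table was matched to Ensembl 115 (BDGP6.54), which held all 73 members. The members and lists were chosen with earlier results of these data known. Named members were those called over all controls without overlap, those with opposite calls against the control classes, the 4 most abundant uncalled ones and the mRpS18 paralogs. Other lists gave up to 3 called genes with the smallest p and the most abundant uncalled one. mRpL18, mRpL12, mRpL34, mRpL11, mRpS22 and neighbours were added, the first 5 after their values were seen. Of the lists' symbols, mEFG2, gatC, SLIRP1, JhI-1, Tim14, Tim22, Tim44 and others had no match and are not analysed here. The depth gives 3 counts as 0.0628 to 0.355 CPM per library. Alternatives were DESeq2 1.42.0, limma-voom 3.58.1, other scalings, no filter, depth class as a term, a replicate block and leaving out each library.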

Additional observations from a re-analysis of the deposited data

How the results depend on the processing

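Over all controls, the 5 members called higher became 0 when scaled on germline nuage and piRNA genes (2 higher and 6 lower at an unadjusted p under 0.05), 27 with depth class as a term (which is the comparison with control 1), 3 with library totals, 2 with totals without rRNA genes, 2 without the filter and 2 with upper quartile scaling. Leaving out 1 library gave 0 to 7 higher and 0 to 32 lower members. Against control 1, the 27 became 16 without the filter and 9 to 28 with a library left out. Against controls 2 and 3, the 7 became 2 when scaled on germline genes and 4 to 9 with a library left out. With depth class as a term the subunit medians moved to 0.26 (small) and 0.46 (large). Fold changes over all controls turned sign for mRpL53 (1.33 with depth class, 0.056 by limma-voom, 0.27 with the block), mRpS21 (0.64 with depth class), mRpL41 (0.61 with depth class, 0.024 by limma-voom), mRpS25 (0.59 with depth class, 0.052 by limma-voom), mRpL49 (0.49), mRpS18A (0.024), mRpS18B (0.23) and tko (0.49) with depth class, tko also by limma-voom (0.024), and mRpS30 with the block (-0.039) and without control 3 (-0.10). The causes were not tested. Scaling on germline genes shifted the median of all genes to -0.27 in control 1 minus controls 2 and 3. The median of the members lay 0.20 to 0.21 above that of all genes against control 1 and 0.37 to 0.38 below it against controls 2 and 3 under the scalings tried, but 0.018 above it and 0.71 below it without the filter, which adds low genes.

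Same-numbered libraries shared only a number, with correlations of deviations of 0.06 and 0.05. With the number as a replicate block, 3 members were called higher and 2 lower, and mRpL10, mRpL39, mRpL44 and mRpS2 lost their calls. A block in the fit with 3 groups left no residual degrees of freedom and was not run.

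Control 1 is a single library, and controls 2 and 3 are shallow. The calls of members over all controls rest on both knockout libraries together and were lost when either was left out.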
